A study of Mus musculus with 12 samples.

Results

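Teratomas from R1 mouse embryonic stem (ES) cells that carried a K412R mutant of Dnmt3L were compared with teratomas from R1 cells that carried WT Dnmt3L, gene by gene. The comparison took the libraries of the 3 K412R and the 3 WT Dnmt3L teratomas, 6 of the 12 libraries of the series, as their titles name them. Both lines were made with the lentiviral vector pEZ-Lv235, in which the CAG promoter drives an untagged Dnmt3L reading frame, and both were selected with puromycin and propagated in serum with LIF. All 12 teratomas grew from 5000000 cells injected under the skin of 8-week-old male NOD-PrkdcEM1 mice, an immunodeficient strain, and were taken at day 21. Teratomas with the empty vector (ET) are given beside the 2 groups, and a further group labelled K238R entered the fit only to estimate the spread. The study raised each group from 1 transduced line as far as its methods state, so the p-values measure the spread between tumours and not between lines. Host and graft are both mouse, and reads from blood, vessels and stroma of the host cannot be told apart from those of the graft.

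DNMT3L is a member of the DNA methyltransferase 3 family without catalytic activity of its own. It binds DNMT3A and DNMT3B, raises their activity on CpG sites and is best known for setting imprints and silencing transposons in germ cells. The lysine of K412R lies near the end of the protein, and the study mutated it to arginine, which cannot be acetylated, to ask what acetylation of that lysine does for Dnmt3L. A teratoma is a tumour in which pluripotent cells form tissues of all germ layers, so that its RNA is a mixture of neural, muscle, epithelial and other cells. In such bulk RNA, fewer cells of a type and less RNA per cell cannot be told apart.

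The codon that the construct changes is shown because it is the designed difference between both groups. It lies in coding exon sequence of Dnmt3l, in exon 13 of transcript Dnmt3l-201 (GENCODE, GRCm38, chr10:78063290-78063346, plus strand), 57 bases that run from codon 403 to codon 421, the last before the stop. The capitals mark the codon that K412R changes, AAG, which a translation of the longest reading frame of 421 codons read as lysine.
Dnmt3l codons 403 to 421: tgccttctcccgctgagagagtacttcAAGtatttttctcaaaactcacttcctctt

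Dnmt3l transcript was present in both groups and was lower in K412R. It stood at 39.8, 39.5 and 24.9 CPM, counts scaled to library size, in the 3 K412R teratomas, at 164, 207 and 213 CPM in WT and at 2.19, 0.643 and 7.73 CPM in ET. All K412R libraries lay below all WT libraries and above all ET libraries, as the plot of Dnmt3l by teratoma shows. The means were 34.7 ± 8.52 CPM (SD, n = 3) and 194 ± 27.01 CPM, which is 5.598 times less transcript in K412R (log2 fold change -2.49, SE 0.49, adjusted p = 0.0330). Adjusted p-values, here and below, come from the quasi-likelihood test of edgeR and were adjusted over all genes tested by the Benjamini-Hochberg method, and SE is the standard error of the log2 fold change. The adjusted p rose above 0.05 when 6 of the 12 libraries were left out, each in turn, and lay between 0.0526 without ET replicate 1 and 0.149 without K412R replicate 3, while the log2 fold change stayed between -2.59 and -2.28. The sequence of the construct and of the endogenous gene cannot be separated in gene counts, and protein was not measured here. The comparison therefore holds a difference in the residue and a difference in transcript level, and their shares in any result below cannot be told apart.

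**Figure D1:**
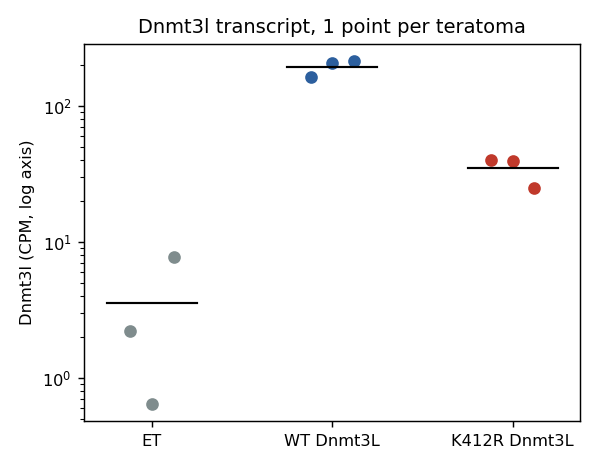
Dnmt3l level in CPM on a log axis, with 1 point per teratoma and a bar at the mean of the 3 teratomas of ET, WT Dnmt3L and K412R. The K412R points (24.9 to 39.8 CPM) lie between ET (0.64 to 7.73 CPM) and WT (163.5 to 213 CPM).

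Depth was even, with 17529003 to 17950246 counts in the 6 libraries. Replicates differed by far more than counting noise (chi-square per degree of freedom 10.5 to 31.8). One WT library stood apart. Over the 500 most variable genes, the typical (root mean square) distance in log2 CPM was 1.497 between WT replicates 2 and 3, but 2.37 and 2.34 between WT replicate 1 and these. WT replicate 1 was nearer to the K412R libraries (1.92 to 2.08) than WT replicates 2 and 3 were (2.55 to 2.85). The K412R libraries lay 1.46 to 1.77 from each other. From its principal component analysis the study described its groups as internally consistent, apart from an outlier among the control teratomas. In the distances here WT replicate 1 was instead set apart from its own group. The ET libraries also enter the estimate of spread but were not part of these distances, so an outlier among them was not tested. WT replicate 1 held less muscle and more pluripotency RNA than the other WT teratomas, and for the gene lists whose calls or median it moved most the values without it are also given. No replicate pair was close enough to be 1 library deposited again.

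Of 18405 genes tested, 245 were higher and 127 lower in K412R at an adjusted p under 0.05, which is 1.33% and 0.69% of the genes. None of the 372 called genes overlapped between the 3 K412R and 3 WT libraries. Over all genes tested, 2842 (15.4%) did not overlap with K412R higher and 3095 (16.8%) with K412R lower. Called changes were moderate, with a median size of 0.76 for the rises and 0.82 for the falls on the log2 scale, and 84 of the rises and 47 of the falls reached 2-fold. A criterion of 2-fold and an unadjusted p under 0.05, modelled on the one the study used with DESeq2, for which it does not say whether p was adjusted, was applied here to the edgeR fit, where 306 genes (1.66%) were higher and 623 (3.38%) were lower. In DESeq2 it gave 364 and 764. In the edgeR fit this criterion thus gave more falls and the adjusted threshold more rises. In both directions the genes that met it varied more between WT teratomas than the called genes. The median SD was 30.9% of the mean against 14.1% for the falls and 36.5% against 9.85% for the rises. An adjusted threshold favours genes of small spread, so this contrast is built in and does not bear on falls against rises. The median log2 fold change of all genes tested was 0.0097.

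The number of called genes rested on single libraries. It was 454 higher (2.42%) and 554 lower (2.95%) without WT replicate 1, and the 2-fold criterion then gave 557 (2.97%) and 873 (4.65%). It was 776 and 764 without ET replicate 2 and 348 and 350 without ET replicate 3. It fell to 137 and 31 without ET replicate 1, 143 and 42 without K238R replicate 3, 152 and 19 without K412R replicate 2, 41 and 3 without WT replicate 2, 13 and 1 without K412R replicate 1, and 10 and 2 without WT replicate 3. Without K412R replicate 3 edgeR called 10 genes higher and 0 lower, with 1616 and 1575 at an unadjusted p under 0.05. DESeq2 on all libraries called 755 and 882 genes, among them 243 of the 245 rises and all 127 falls. Of the 53 called genes named by rule here, 4 to 53 passed the threshold in a given fit without 1 library, the lowest number without K412R replicate 3, and none changed direction in any of the 12 fits. The counts of called list members below move with these numbers. They stand beside the 1.33% higher and 0.69% lower of all genes tested, so a single call says little about a list. List members given as examples beyond the calls were chosen after their values were seen.

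Only 9 genes, all higher in K412R, passed the adjusted threshold in all 12 fits that each left out 1 library. They were picked by this count after their values were seen. Where 2 single levels are set against each other here and below, they are the K412R mean and the WT mean of 3 teratomas, in that order. Cnmd, chondromodulin, an inhibitor of vessel growth in cartilage, stood at 3.76, 3.21 and 3.98 CPM in K412R and at 0.667, 0.907 and 0.536 CPM in WT (log2 fold change 2.36, SE 0.26, adjusted p = 0.00456). Its K412R values were all more than 3 times the highest WT value. Folr1, a folate receptor of the choroid plexus, stood at 16.3, 12.5 and 15.1 CPM against 5.06, 2.21 and 2.98 CPM (log2 fold change 2.09, SE 0.24, adjusted p = 0.00456). Dnah11, a dynein heavy chain of motile cilia, stood at 39.9, 39.6 and 43.3 CPM against 19.7, 20.0 and 18.8 CPM (log2 fold change 1.07, SE 0.11, adjusted p = 0.00257). The others were Bmp1, the procollagen C-proteinase (272 against 134 CPM), Ism1, the secreted protein isthmin (8.24 against 3.26 CPM), Lgi3, a secreted leucine-rich repeat protein (129 against 46.8 CPM), Plekha2, a phosphoinositide-binding adaptor (61.0 against 25.6 CPM), Ccdc3 (127 against 45.2 CPM) and D630039A03Rik (15.1 against 4.36 CPM). All 9 stood above ET in K412R, by 0.27 (Dnah11) to 0.82 (Folr1) on the log2 scale, none past the adjusted threshold. Lgi3 had the smallest p of these (log2 fold change 0.64, unadjusted p = 0.000153, adjusted p = 0.234). All 9 stood below ET in WT. There Cnmd, Ccdc3, Dnah11, D630039A03Rik and Lgi3 passed the adjusted threshold (Lgi3 log2 fold change -0.82, adjusted p = 0.0372).

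The 12 largest called rises were those of Prl3b1, Cer1, Itih6, Cnmd, Fgf5, Folr1, Corin, T, Ferd3l, H19, Dkk1 and Drd1. Prl3b1, placental lactogen of the prolactin family, had 54 counts over the K412R libraries and 2 over WT, a ratio of 26.6 with a 95% exact counting interval of 7.00 to 225, and its family holds near-identical genes that counting could split. Itih6, of the inter-alpha-trypsin inhibitor family, stood at 2.05, 1.75 and 2.04 CPM against 0.222, 0.510 and 0.357 CPM (log2 fold change 2.40, SE 0.39, adjusted p = 0.0157). Drd1, the dopamine D1 receptor, stood at 14.3, 8.52 and 11.8 CPM against 4.34, 2.27 and 2.68 CPM (log2 fold change 1.90, SE 0.29, adjusted p = 0.0135). In all 12 the K412R libraries lay above the WT libraries, which was a condition for naming them here. The ET values of Drd1 (8.99, 7.01 and 11.8 CPM) reached into the K412R range, and those of Itih6 (1.24, 0.994 and 0.733 CPM) lay between both groups.

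The 12 largest called falls were those of Copg2os2, Tceal7, Dbh, Tfap2b, Hoxc8, Dpt, Hoxb9, Dnmt3l itself, Mest, Hapln4, Nrk and Hmx2. Hapln4, a link protein of the perineuronal matrix, stood at 0.513, 0.759 and 0.753 CPM in K412R and 1.45, 2.83 and 4.41 CPM in WT (log2 fold change -2.09, SE 0.42, adjusted p = 0.0363). Nrk, a kinase of the germinal centre kinase family, stood at 12.7, 9.98 and 13.2 CPM against 18.3, 82.9 and 44.0 CPM (log2 fold change -2.01, SE 0.46, adjusted p = 0.0483), with WT replicate 1 the lowest of WT. Hmx2, a homeobox factor of the inner ear and hypothalamus, stood at 0.513, 0.408 and 0.323 CPM against 1.39, 1.81 and 1.25 CPM (log2 fold change -1.83, SE 0.35, adjusted p = 0.0278). The heat map shows these 24 genes by library, and a gene was named only if K412R and WT did not overlap. WT replicate 1 was the WT library nearest to K412R in every row except Prl3b1, Itih6, Cnmd, Ferd3l, H19, Hoxb9 and Hmx2.

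**Figure D2:**
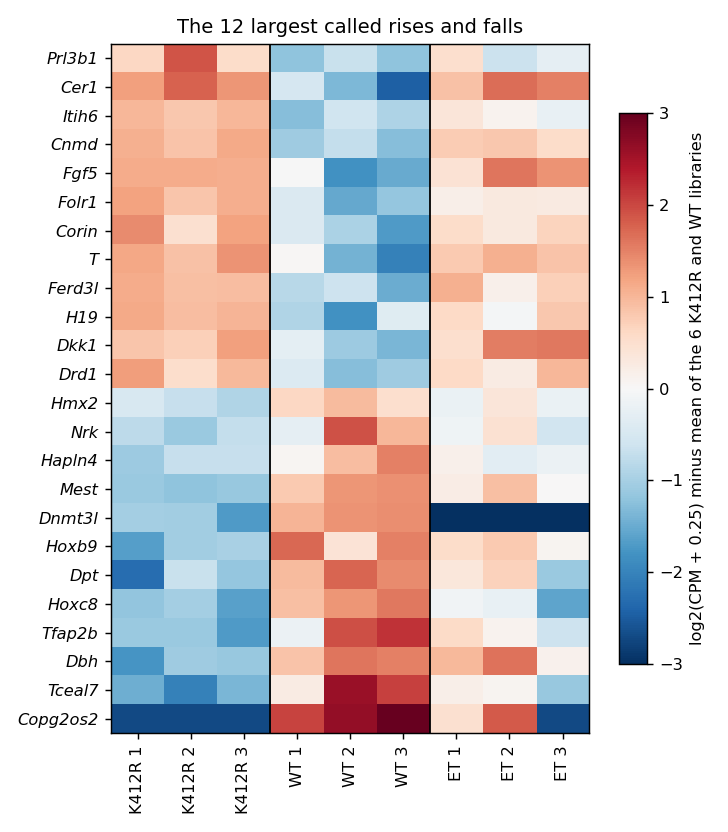
Heat map of the 12 largest called rises and the 12 largest called falls (rows) in the K412R, WT and ET libraries (columns), as log2(CPM + 0.25) minus the mean of the 6 K412R and WT libraries, with colours capped at 3 in either direction. Red is above and blue below that mean, and rows were chosen for no overlap between the 3 K412R and the 3 WT libraries.

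Floor plate genes were the list with the most called members. The floor plate is the ventral midline of the neural tube, which secretes SHH and netrin. Of its 22 members, all tested, 10 were called higher and 0 lower, 19 did not overlap with K412R higher, and the median log2 fold change was 0.98. Corin, a serine protease that marks floor plate progenitors, stood at 265, 139.6 and 229 CPM in K412R and at 73.0, 51.0 and 30.4 CPM in WT (log2 fold change 2.04, SE 0.32, adjusted p = 0.0135). Vtn, the matrix protein vitronectin, stood at 241, 202 and 232 CPM against 67.4, 70.0 and 52.9 CPM (log2 fold change 1.83, SE 0.25, adjusted p = 0.00945). The means were 4.10 and 3.55 times higher in K412R, without overlap. Ferd3l, a basic helix-loop-helix factor, stood at 11.6, 10.04 and 10.2 CPM against 2.84, 3.35 and 1.73 CPM (log2 fold change 2.01, SE 0.29, adjusted p = 0.0104). Foxa1, a forkhead factor that opens chromatin, stood at 137, 105 and 165 CPM against 67.9, 69.1 and 57.8 CPM (log2 fold change 1.07, SE 0.17, adjusted p = 0.0138). The guidance genes rose as well: Ntn1, netrin (841 against 424 CPM, 1.98-fold), the midline repellent Efnb3 (576 against 269 CPM, 2.14-fold) and Slit2 (404 against 151 CPM, 2.68-fold). Sulf1 and Sulf2, sulfatases of heparan sulfate, were also called (log2 fold change 1.13 and 0.58). Shh itself was at 106 against 29.1 CPM and Foxa2 at 66.8 against 28.2 CPM, and both met the 2-fold criterion but not the adjusted threshold (adjusted p = 0.0524 and 0.0628). Ptch1, the SHH receptor whose transcription follows the signal, was at 292 against 167 CPM, and Gli1 at 23.6 against 19.01 CPM with overlapping libraries. Without WT replicate 1, 13 members were called higher and the median was 1.13. Over the 12 fits that left out 1 library the number called was lowest, 0, without K412R replicate 3 and highest, 16, without ET replicate 2, while the median lay between 0.85 and 1.13.

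The start sites of 2 floor plate genes and of Cer1, the leading organizer gene below, are shown with every CG in capitals. CpG sites are where DNMT3A and DNMT3B act, and the study proposes that Dnmt3L also works in ways independent of methylation. The 3 genes were taken from the called ones, and a role of methylation in their change was not tested. Each window holds 300 bases, 250 before and 50 after the start, from RefSeq on GRCm38.p6. Foxa1 (chr12:57546062-57546361, minus strand) held 26 CpG sites, Vtn (chr11:78498870-78499169, plus strand) 9 and Cer1 (chr4:82885102-82885401, minus strand) 6. Over the 27025 genes of that table the median was 7, 94.2% held at least 1, and 16.8%, 46.2% and 56.4% held at least as many as Foxa1, Vtn and Cer1. Foxa1 thus lay above the third quartile of 21 sites, and Vtn and Cer1 lay between the first quartile of 3 and the third. Methylation of these windows was not measured in these libraries. In its ES cell lines the study reported more methylation at Foxa1 and Cer1 with WT Dnmt3L than in control cells, but not with K412R. The regions it measured need not match these windows.
Foxa1: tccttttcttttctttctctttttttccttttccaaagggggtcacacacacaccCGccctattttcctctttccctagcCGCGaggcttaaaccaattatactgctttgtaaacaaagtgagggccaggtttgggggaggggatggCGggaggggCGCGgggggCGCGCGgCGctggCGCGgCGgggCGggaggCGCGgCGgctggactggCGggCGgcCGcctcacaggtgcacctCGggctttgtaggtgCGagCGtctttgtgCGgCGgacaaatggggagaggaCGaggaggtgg
Vtn: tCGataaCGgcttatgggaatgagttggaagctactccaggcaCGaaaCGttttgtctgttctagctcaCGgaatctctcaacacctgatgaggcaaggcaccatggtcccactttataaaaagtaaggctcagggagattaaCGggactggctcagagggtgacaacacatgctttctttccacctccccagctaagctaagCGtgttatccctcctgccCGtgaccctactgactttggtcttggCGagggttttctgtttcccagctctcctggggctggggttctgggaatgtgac
Cer1: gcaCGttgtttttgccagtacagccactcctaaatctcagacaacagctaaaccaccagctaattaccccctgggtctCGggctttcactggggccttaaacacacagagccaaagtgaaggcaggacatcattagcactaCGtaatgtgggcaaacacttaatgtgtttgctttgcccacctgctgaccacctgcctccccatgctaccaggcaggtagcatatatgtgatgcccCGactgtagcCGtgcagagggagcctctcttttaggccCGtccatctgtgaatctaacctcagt

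Organizer and mesendoderm genes had the highest median of the 36 gene lists. These genes pattern the early embryo from the node, the primitive streak and the anterior endoderm. Of 25 members tested, 5 were called higher and 0 lower, 16 met the 2-fold criterion higher and 0 lower, and the median log2 fold change was 1.59. Cer1, a secreted inhibitor of NODAL, BMP and WNT, stood at 6.66, 9.86 and 7.15 CPM in K412R, 1.83, 0.907 and 0.298 CPM in WT and 5.23, 9.18 and 8.24 CPM in ET (log2 fold change 2.94, SE 0.45, adjusted p = 0.0134). T, the brachyury factor of streak and notochord, stood at 44.8, 36.9 and 51.2 CPM against 20.5, 7.26 and 4.65 CPM, with ET at 34.2, 42.0 and 35.9 CPM (log2 fold change 2.03, SE 0.42, adjusted p = 0.0377). In both genes WT replicate 1 was the highest WT library, and the ET libraries lay near the K412R libraries. Fgf5, a growth factor of the epiblast, stood at 6.84, 6.77 and 6.67 CPM against 3.003, 0.680 and 0.894 CPM (log2 fold change 2.14, SE 0.48, adjusted p = 0.0449). Dkk1, a secreted WNT inhibitor (6.34 against 1.66 CPM), and the T-box gene Eomes (6.73 against 2.52 CPM) were the other called members. Noto of the notochord (2.48 against 0.278 CPM), Nodal (2.08 against 0.602 CPM), Apela (14.3 against 4.29 CPM), Gsc (1.16 against 0.207 CPM) and Mixl1 (0.636 against 0.130 CPM) met the 2-fold criterion without passing the adjusted threshold. Against these, Lhx1 was at 14.4 against 20.4 CPM (log2 fold change -0.50). When WT replicate 1 was left out, 15 members were called higher and the median was 2.38, and without K412R replicate 1 none was called.

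Residual pluripotency genes, the mark of undifferentiated cells, depended on WT replicate 1. Of 26 members tested, 0 passed the adjusted threshold in edgeR or DESeq2, 5 had an unadjusted p under 0.05, 3 met the 2-fold criterion higher, and the median was 0.69. Pou5f1 stood at 25.1, 21.6 and 16.7 CPM in K412R and at 24.2, 2.49 and 1.013 CPM in WT. WT replicate 1 thus lay within the K412R range and the other WT libraries far below it. Lefty1, a NODAL inhibitor, had the smallest p of the list, at 28.8, 22.5 and 18.2 CPM against 16.5, 2.78 and 1.61 CPM (log2 fold change 1.73, SE 0.60, adjusted p = 0.127). Nanog was at 6.93 against 2.49 CPM and Sox2, which neural progenitors also express, at 150.1 against 118 CPM. Klf4 was at 21.2 against 15.9 CPM without overlap (adjusted p = 0.139), and Tfcp2l1 of the naive state stood at 10.99, 8.40 and 10.3 against 9.40, 9.81 and 8.58 CPM, overlapping. Without WT replicate 1, 11 members were called higher, 16 met the 2-fold criterion, the median was 2.496, and Pou5f1 was at a log2 fold change of 3.58 (adjusted p = 0.00659).

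Germ cell and meiosis genes, many of which are silenced by promoter methylation in body cells, gave no call in edgeR. Of 29 germ cell genes tested, 0 passed the adjusted threshold in edgeR, 2 in DESeq2, and 6 met the 2-fold criterion higher, which were also all 6 at an unadjusted p under 0.05, with a median of 0.46. The 6 were Mov10l1, Tex14, Sohlh2, Stra8, Rhox6 and Dnd1. Stra8, which retinoic acid induces at the entry to meiosis, stood at 1.99, 3.97 and 1.45 CPM in K412R, 1.17, 0.0567 and 0.0596 CPM in WT and 9.38, 1.75 and 12.2 CPM in ET (log2 fold change 2.48, adjusted p = 0.148). Sohlh2, a factor of early spermatogonia and oocytes, stood at 11.8, 24.6 and 18.4 CPM against 8.73, 2.72 and 4.59 CPM, with ET at 46.9, 7.42 and 63.4 CPM (log2 fold change 1.77, adjusted p = 0.133). In both genes no K412R library overlapped WT, and ET replicates 1 and 3 were the highest of all. Mov10l1, an RNA helicase of the piRNA pathway on chromosome 15, was at 4.06 against 0.777 CPM, and Ddx4, the germ cell helicase, at 3.54 against 2.56 CPM with overlap. Of 31 meiosis genes tested, 3 met the 2-fold criterion higher (Meioc, Sycp1 and Ankrd31) and 1 lower (Mei4), and the median was 0.29. None passed the adjusted threshold in edgeR, where 10 had an unadjusted p under 0.05, and 1 was called higher and 1 lower in DESeq2. Dmc1, the meiotic recombinase, was at 3.28 against 1.81 CPM and Iho1, a factor of meiotic breaks, at 2.17 against 4.004 CPM, each without overlap, and Sycp3 of the synaptonemal complex at 1.42 against 1.27 CPM. When WT replicate 1 was left out, 3 germ cell genes and 1 meiosis gene were called higher, with medians of 1.11 and 0.66.

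Of the 26 genes that the study's text names, 25 were tested, 7 were called higher and 0 lower. Some of them the study picked from its teratoma results, so for these the count is no independent evidence of a direction. The called genes were Dnah11, Folr1, Cer1, Foxa1, Ntn1, Slit2 and Rbp4, the serum carrier of retinol (7.69, 5.89 and 7.85 CPM in K412R, 3.73, 2.10 and 2.68 CPM in WT). Pkd1l1, a channel protein of left-right sensing, stood at 15.0, 11.1 and 11.7 CPM against 7.56, 2.83 and 1.73 CPM and just missed the threshold (adjusted p = 0.0562), as did Apela, a peptide hormone of early endoderm (adjusted p = 0.0591). Fgf8 was at 4.15 against 1.25 CPM and Bmp4 at 14.03 against 11.6 CPM, neither called. Tubb3 and Rbfox3 of neurons were at 422 against 603 CPM and 33.9 against 59.2 CPM, the imprinted gene Snrpn at 149 against 195 CPM and Klf2 at 5.98 against 8.75 CPM. Of the cardiac genes, Tnnt2 was at 2.02 against 26.0 CPM, past the 2-fold criterion lower, and Tnni3 at 7.46 against 6.68 CPM. By protein staining of teratoma sections, the study reported fewer cells with Tnnt2, βIII-tubulin (Tubb3) and NeuN (Rbfox3) in WT than with the mutants. The RNA of these genes ran the other way here, with none called. The study reported the same for stained Sox2, Tnni3, Bmp4 and Stra8, whose RNA was higher in K412R, also not called. Bulk RNA and stained cells are unlike measures. Prdm14, at 0.0570, 0.175 and 0.215 CPM in K412R and 0.278, 0 and 0.0596 CPM in WT, was too low to test. Without WT replicate 1, 12 were called higher and 1 lower.

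Choroid plexus genes had no common direction. The choroid plexus is the epithelium that makes cerebrospinal fluid. Of 22 members tested, 5 were called higher, yet the median was -0.05 and 11 members lay on either side of 0. The called members were Folr1, Enpp2, Rbp4, F5 and Sulf1, of which Enpp2 lies on chromosome 15 and F5 and Sulf1 on chromosome 1. Enpp2, autotaxin, which makes lysophosphatidic acid, stood at 275, 231 and 251 CPM against 105, 94.6 and 93.1 CPM (log2 fold change 1.37, SE 0.17, adjusted p = 0.00637). F5, coagulation factor V, stood at 20.3, 30.1 and 28.5 CPM against 12.3, 12.9 and 10.7 CPM (log2 fold change 1.14, SE 0.24, adjusted p = 0.0390). The genes that define the tissue did not follow: Ttr was at 1.12 against 2.11 CPM, Clic6 at 11.9 against 11.8 CPM, Kl at 1.07 against 1.71 CPM and Slc13a4 at 2.10 against 6.21 CPM. In the motile cilium list Dnah11 and Dnah9 (73.4 against 51.3 CPM) were called higher and 0 of 40 lower. Most members lay the other way, 30 of 40 below 0 with a median of -0.34. Of the 40, 14 did not overlap with K412R lower and 5 with K412R higher, beside 16.8% and 15.4% of all genes. Foxj1, the master factor of motile cilia, was at 95.1 against 68.8 CPM (log2 fold change 0.47) while Spag17 was at 5.47 against 9.99 CPM and Dnah5 at 29.7 against 38.0 CPM. In K412R the called dyneins and most other cilium genes thus stood on opposite sides of WT. In the fit without WT replicate 1, 1 choroid plexus gene was called lower beside 5 higher, and 3 cilium genes were called higher.

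Signalling genes held calls in both directions, 4 higher and 1 lower of 58 tested, with a median of 0.31 and 25 members without overlap and higher. Id3, a target of BMP signals, stood at 77.9, 90.1 and 85.2 CPM against 53.3, 57.3 and 47.9 CPM (log2 fold change 0.68, SE 0.10, adjusted p = 0.0135), and the ligand Bmp7 at 41.0, 35.8 and 40.9 against 21.6, 31.1 and 23.7 CPM (log2 fold change 0.62, SE 0.14, adjusted p = 0.0449). Dkk1 and Rbp4 were the other rises. Cyp26b1, which degrades retinoic acid, fell, from 51.4, 66.3 and 60.3 CPM in WT to 38.7, 27.4 and 34.7 CPM in K412R, where the ET libraries also lay (39.1, 34.1 and 27.9 CPM). Its relative Cyp26a1 was at 4.91 against 2.10 CPM and Aldh1a3, which makes retinoic acid, at 13.7 against 6.07 CPM, which met the 2-fold criterion without passing the adjusted threshold. When WT replicate 1 was left out, 8 were called higher and 2 lower.

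Neuron genes stood lower as a list, mostly without a call in edgeR. Of 48 neuron and synapse genes tested, 44 had a negative log2 fold change, 25 did not overlap with K412R lower, and the median was -0.64. DESeq2 called 15 lower and 2 higher, but edgeR called only 1. That was Elavl3, a neuronal RNA-binding protein, at 174, 192 and 190.0 CPM against 249, 316 and 341 CPM (log2 fold change -0.70, SE 0.12, adjusted p = 0.0188). Among the 8 that met the 2-fold criterion were the GABA-synthesis genes Gad1 (19.7 against 55.9 CPM) and Gad2 (27.9 against 68.5 CPM), the glycine transporter Slc6a5 (15.0 against 41.3 CPM) and the vesicular GABA transporter Slc32a1 (12.5 against 33.1 CPM). The cholinergic genes, Slc5a7 (14.5 against 7.29 CPM) and Chat (3.14 against 1.73 CPM), lay on the other side, and neither was called. Without WT replicate 1, 10 members were called lower and the median was -0.81. In the astrocyte and radial glia list, 1 of 29 was called lower, the proteoglycan gene Ncan at 126, 171 and 135 CPM against 231, 424 and 380.2 CPM (log2 fold change -1.26, SE 0.26, adjusted p = 0.0385), and 6 met the 2-fold criterion, among them Gfap (204 against 589 CPM) and Aqp4 (133 against 313 CPM). Nes (209 against 170.4 CPM) and Hes1 (39.0 against 21.7 CPM) of the same list stood above WT, while 21 of the 29 members had a negative log2 fold change. Of this list 4 were called lower and 1 higher without WT replicate 1, with a median of -0.54.

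Regional transcription factors of the neural tube gave 1 call in 52, Irx2 of the Iroquois family, at 9.51, 10.6 and 9.30 CPM in K412R and 20.2, 21.9 and 20.8 CPM in WT (log2 fold change -1.10, SE 0.14, adjusted p = 0.00637). The groups did not overlap, and ET lay between both groups at 14.5, 13.5 and 13.9 CPM. Of the 52, 7 met the 2-fold criterion lower and 0 higher. A negative log2 fold change was found for 31 and a positive one for 21, with a median of -0.23. Among the 7 were Pax7 (0.869 against 4.70 CPM), Dbx2 (3.29 against 7.47 CPM) and Lbx1 (0.665 against 3.02 CPM). Nkx6-1, also a member of the floor plate list, was at 30.3 against 15.5 CPM (log2 fold change 0.97) and passed neither rule. Of 33 sympathetic and neural crest genes, 2 fell and the median was -0.05. Dbh, which makes noradrenaline, stood at 0.228, 0.525 and 0.484 CPM against 2.67, 4.65 and 4.41 CPM and 2.92, 4.73 and 1.52 CPM in ET (log2 fold change -3.22, SE 0.58, adjusted p = 0.0224). Tfap2b, a neural crest factor, stood at 3.13, 3.09 and 1.99 CPM against 6.23, 27.5 and 32.5 CPM (log2 fold change -3.01, SE 0.60, adjusted p = 0.0336). The noradrenaline transporter Slc6a2 was at 1.08 against 5.01 CPM, while Th was at 28.5 against 22.3 CPM and Prph at 55.7 against 17.01 CPM. Members of the list thus lay on both sides of WT. Of 29 oligodendrocyte and Schwann cell genes 0 passed the adjusted threshold in edgeR (Sox10 at 60.1 against 36.1 CPM, Myrf at 56.5 against 35.0 CPM, 2 of the 4 members at an unadjusted p under 0.05), and of 12 retina and pigment genes tested Rlbp1, which binds retinaldehyde, fell (1.02 against 3.50 CPM). Leaving out WT replicate 1 gave 3 regional factors and 3 sympathetic and neural crest genes called lower, and the median of the retina and pigment genes was -0.38.

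Hox genes split by their place in the clusters. Hox genes of low paralog number are expressed in the hindbrain and neck and those of high number further back along the body. Of 32 members tested, 9 met the 2-fold criterion higher and 7 lower. In edgeR 2 were called, both lower, while DESeq2 called 6 higher and 6 lower. Hoxb9 stood at 0.684, 1.17 and 1.24 CPM against 9.40, 3.63 and 8.04 CPM (log2 fold change -2.76, SE 0.60, adjusted p = 0.0418), and Hoxc8 at 0.911, 1.05 and 0.591 CPM against 4.62, 6.35 and 7.63 CPM (log2 fold change -2.86, SE 0.50, adjusted p = 0.0214). Divided after the values were seen, the 14 genes of paralog groups 1 to 5 had 9 that met the criterion higher and 1 lower (Hoxd4), with a median of 1.14. The 18 tested genes of groups 6 to 13 had 0 higher and 6 lower, with a median of -1.19. Hoxc4 (32.0 against 6.79 CPM), Hoxb5 (35.4 against 8.75 CPM) and Hoxa4 (15.0 against 3.91 CPM) were highest, but none passed the adjusted threshold (adjusted p = 0.0783, 0.0869 and 0.0628). The split ran within single clusters, since Hoxc4 and Hoxc5 stood on one side and Hoxc8, Hoxc9 and Hoxc10 on the other. The medians were 1.23 and -0.98 without WT replicate 1, and 1 Hox gene was called higher. The plot by paralog group shows the step between groups 5 and 6.

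**Figure D3:**
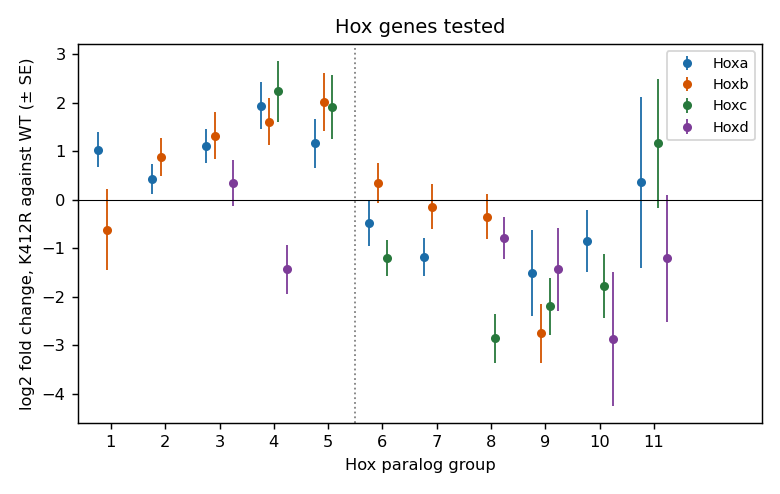
Log2 fold change of K412R against WT for the 32 Hox genes tested, by paralog group, with bars of 1 standard error and colours for the 4 clusters. Left of the dotted line 12 of 14 points lie above 0, and right of it 15 of 18 lie below 0.

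Skeletal muscle genes had the lowest median of all lists, -2.25, and all 44 members had a negative log2 fold change. None passed the adjusted threshold in edgeR, where 30 had an unadjusted p under 0.05, 14 were called lower in DESeq2, and 30 met the 2-fold criterion lower. Myog, the factor of muscle differentiation, stood at 1.65, 0.233 and 0.538 CPM in K412R and at 3.39, 17.9 and 14.9 CPM in WT. Myh8, the perinatal myosin heavy chain, stood at 24.9, 18.1 and 13.9 CPM against 149, 1424 and 248 CPM, with WT replicate 2 far above the other WT libraries (log2 fold change -5.001, SE 1.31, adjusted p = 0.0693). Acta1, skeletal actin, stood at 85.8, 106 and 90.4 CPM against 84.8, 706 and 652 CPM, and WT replicate 1 lay just below the K412R libraries. Mymx, which fuses myoblasts, had the smallest p of the list (log2 fold change -3.10, SE 0.81, adjusted p = 0.0689). The mean deviation of the list from its 6-library mean was -0.56, -1.19 and -0.99 in K412R and -0.68, 1.73 and 1.68 in WT (log2), so WT replicate 1 lay among the K412R libraries. ET was at -0.14, -0.21 and -1.39. When WT replicate 1 was left out, 12 were called lower, 35 met the 2-fold criterion and the median was -2.67. Without WT replicate 2 the 2-fold criterion held for 15 members. Of 31 cardiac genes tested, 0 were called in edgeR, and DESeq2 called 6 lower and 1 higher. The 2-fold criterion was met by 11 lower and 1 higher. The lower ones hold genes that skeletal muscle also uses, such as Actc1 (7.43 against 169 CPM) and Casq2 (4.59 against 26.7 CPM). Myl2 of the ventricle was at 2.46 against 2.42 CPM, Tnni3 at 7.46 against 6.68 CPM, and Gata4 at 9.56 against 4.05 CPM, the one that met it higher. Of the cardiac genes 4 were called lower and 1 higher without WT replicate 1, with a median of -0.89 against -0.59.

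Connective tissue genes fell in part. Of 35 fibroblast and matrix genes tested, 3 fell and the median was -0.42. Dpt, dermatopontin of the collagen matrix, stood at 0.741, 2.74 and 1.88 CPM against 9.06, 15.7 and 12.6 CPM (log2 fold change -2.80, SE 0.57, adjusted p = 0.0363), Postn, periostin, at 186, 168 and 184 against 231, 309 and 255 CPM (log2 fold change -0.56, SE 0.12, adjusted p = 0.0372), and Prrx1, a factor of limb mesenchyme, at 16.8, 18.1 and 16.3 against 28.4, 31.7 and 27.6 CPM (log2 fold change -0.78, SE 0.17, adjusted p = 0.0428). Dpt and Prrx1 lie on chromosome 1. Col1a1 was at 827 against 1779 CPM and Dcn, decorin, at 242 against 177 CPM. In cartilage and bone, Cnmd rose and 0 of 33 fell, with Col2a1 of cartilage at 150.4 against 60.2 CPM and Ibsp of bone at 6.0001 against 51.9 CPM, both past the 2-fold criterion in opposite directions. Fat cell genes gave 6 of 22 past the 2-fold criterion lower and 0 called in edgeR, with 8 at an unadjusted p under 0.05 and 5 called lower in DESeq2. Adipoq, adiponectin, stood at 0.228, 0 and 0.108 CPM against 0.945, 7.94 and 0.357 CPM and Cidec, of the lipid droplet, at 0.0570, 0.0583 and 0 against 1.001, 4.31 and 0.238 CPM, so WT replicate 2 held most of this RNA. When WT replicate 1 was set aside, 1 fat cell gene and 3 fibroblast and matrix genes were called lower and 2 cartilage and bone genes higher.

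Blood and vessel genes gave no call in edgeR. At an unadjusted p under 0.05 stood 4 erythroid, 5 endothelial and 2 macrophage genes, and DESeq2 called 0, 3 and 0. Of 11 erythroid genes tested, 4 met the 2-fold criterion lower, among them the adult globins Hbb-bs (121 against 263 CPM) and Hbb-bt (32.7 against 76.5 CPM), near-identical genes whose reads counting may split, and none without K412R replicate 3. Endothelial genes (31 tested, median -0.27) had 1 past that criterion, Cldn5 at 4.57 against 11.3 CPM, with Tek at 5.43 against 9.91 CPM and Sox17 at 8.70 against 5.94 CPM. Macrophage genes (30 tested, median 0.09) were led by Itgax (1.73 against 3.31 CPM) and Ccl2 (4.46 against 2.21 CPM). Of 43 interferon genes, Ifitm3, which blocks virus entry, rose, at 92.8, 140.1 and 100.3 CPM against 73.2, 47.5 and 56.7 CPM (log2 fold change 0.91, SE 0.19, adjusted p = 0.0381), and the median was 0.27. With WT replicate 1 left out, 2 interferon genes were called higher and 1 endothelial gene lower, and 7 erythroid genes met the 2-fold criterion lower.

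Epithelial and extraembryonic genes showed few rises, beside 1.33% of all genes called higher and 1.66% higher by the 2-fold criterion. Of 26 intestinal and simple epithelium genes tested, Olfm4, a marker of crypt stem cells, rose, at 3.99, 4.49 and 5.32 CPM against 1.45, 1.76 and 2.03 CPM (log2 fold change 1.40, SE 0.27, adjusted p = 0.0310), and 5 were called higher without WT replicate 1. The simple keratins Krt8 and Krt18 were at 159 against 104 CPM and 113 against 64.2 CPM. Of 27 liver and yolk sac genes tested, Rbp4 rose, 7 met the 2-fold criterion higher and 0 lower, and the median was 0.42, with Afp at 1.16 against 0.923 CPM. In the trophoblast list Prl3b1 and Eomes rose among 22 tested (median 0.98), with Tpbpa of the spongiotrophoblast at 2.31 against 0.288 CPM. In the same fit 4 liver and yolk sac genes were called higher (median 0.56), and 8 trophoblast genes met the 2-fold criterion higher, against 4 with all libraries (median 1.54 without WT replicate 1). Squamous keratinocyte genes gave no call in edgeR (29 tested, 0 called in edgeR, 3 at an unadjusted p under 0.05, 2 called in DESeq2, median 0.07), with Itgb4 at 46.7 against 32.8 CPM, Sprr1a at 2.42 against 1.09 CPM and Krt5 at 72.4 against 55.9 CPM.

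**Figure D4:**
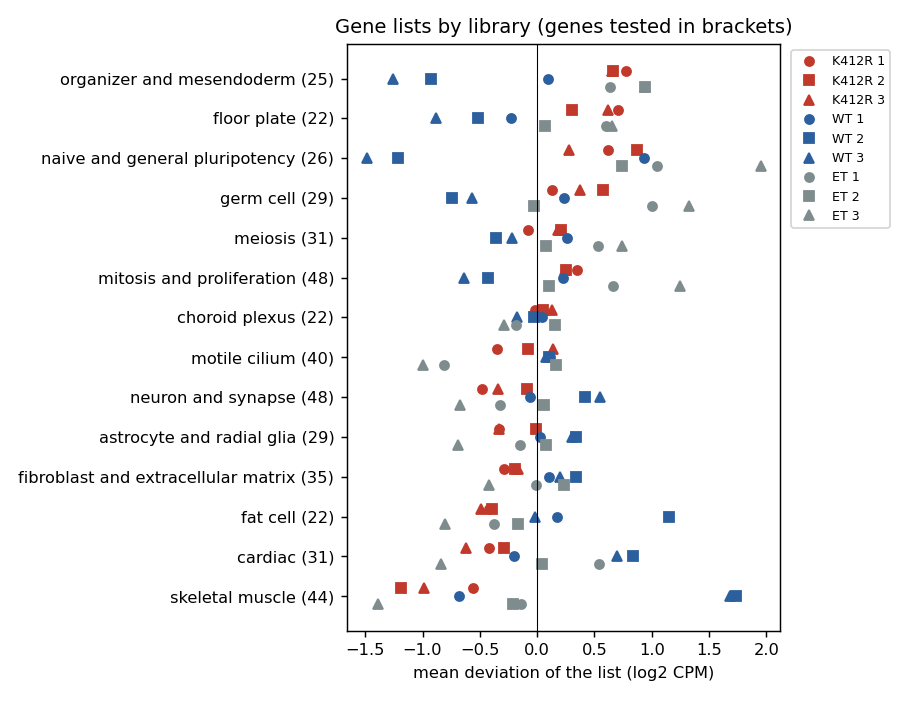
Mean over a gene list of log2 CPM minus the gene's mean of the 6 K412R and WT libraries, for 14 lists and every library of K412R, WT and ET, with the number of genes tested in brackets and a symbol for each replicate number. K412R lies right of all WT libraries for the floor plate and organizer lists, while WT replicate 1 (blue circle) lies away from WT replicates 2 and 3 for pluripotency and skeletal muscle.

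The list of imprinted genes held 1 rise and 3 falls in 62 tested, with a median of -0.18. DNMT3L helps to set parental marks in germ cells, but imprinting of the members was not checked here. Neighbours such as H19 and Igf2 were counted singly, so calls such as those of Mest and Copg2os2 need not be separate loci. H19, the maternally expressed RNA next to Igf2, stood at 401, 342 and 368 CPM in K412R, 96.9, 51.0 and 142 CPM in WT and 275, 173 and 320.0 CPM in ET (log2 fold change 1.94, SE 0.31, adjusted p = 0.0156). All K412R libraries lay above all WT and ET libraries, while Igf2 was at 1681 against 2088 CPM. Mest, the paternally expressed gene of its domain, stood at 487, 456 and 485 CPM in K412R, 1818, 2658 and 2739.7 CPM in WT and 1231, 1984 and 1068 CPM in ET (log2 fold change -2.34, SE 0.28, adjusted p = 0.00515). The K412R libraries lay below every WT and ET library, and against ET the log2 fold change was -1.58 (unadjusted p = 9.15e-05, adjusted p = 0.191). Without K412R replicate 3 the adjusted p of Mest was 0.0549. Copg2os2, an antisense RNA of Copg2, had 0 counts in all K412R libraries, 583 counts over the WT libraries and 2.02, 5.61 and 0 CPM in ET, so it was at least 197.6-fold lower in K412R than in WT at a floor of 3 counts over the group. The use of strand in counting is not stated, so its reads cannot be told apart from those of genes it overlaps. Copg2 was at 72.7 against 59.7 CPM. Tceal7, of the X-linked elongation factor A-like family, stood at 1.25, 0.759 and 1.34 CPM against 4.67, 24.5 and 16.8 CPM (log2 fold change -3.76, SE 0.67, adjusted p = 0.0218). Among the imprinted genes not called, Peg3 was at 1222 against 895 CPM, Meg3 at 2381 against 3774 CPM, Plagl1 at 127 against 173 CPM and Igf2r at 133 against 118 CPM. Clustered protocadherins gave 1 call in 58, Pcdhgb5 (17.8 against 10.2 CPM), which shares its last exons with the rest of the gamma cluster. The fit without WT replicate 1 called 6 imprinted genes and 2 protocadherins lower and 1 of each list higher.

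Of the 16 genes that write, read or erase DNA methylation, Dnmt3l was the only one called in edgeR with all libraries, and 1 more was called, higher, without WT replicate 1. Dnmt3a was at 199.6 against 221 CPM, Dnmt3b at 23.3, 26.5 and 24.7 CPM in K412R and 34.4, 6.80 and 4.53 CPM in WT, where WT replicate 1 stood above all K412R libraries, Dnmt1 at 168 against 162 CPM and Uhrf1 at 46.5 against 33.4 CPM. Tet1 was at 55.9 against 48.1 CPM, and Zfp57, which guards imprints, at 90.4 against 109.6 CPM (log2 fold change -0.28, adjusted p = 0.0822), both without overlap, and DESeq2 also called Zfp57 (adjusted p = 0.0194). Polycomb and chromatin repressor genes (24 tested, 0 called in edgeR, 5 at an unadjusted p under 0.05 and 1 in DESeq2, median 0.29) were led by Hdac1 (93.7 against 63.9 CPM) and Mga (143 against 109 CPM).

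Mitosis genes stood higher, and their calls depended on WT replicate 1. Of 48 tested, 47 had a positive log2 fold change, 22 did not overlap, the median was 0.55, and 0 passed the adjusted threshold in edgeR or DESeq2, with 11 at an unadjusted p under 0.05. Mki67 was at 393 against 246 CPM, Ccnb2 at 36.0 against 21.6 CPM and Cdk1 at 49.996 against 32.0 CPM. The list deviated by 0.35, 0.25 and 0.24 in K412R and by 0.23, -0.43 and -0.64 in WT, so that WT replicate 1 again lay next to K412R. Without WT replicate 1, 3 mitosis genes were called higher, 10 met the 2-fold criterion and the median was 0.84. Glycolysis and hypoxia genes (39 tested, median 0.18) were led by Egln3 (66.2 against 33.2 CPM) and Mxi1 (109 against 84.2 CPM) and had 0 calls in edgeR, 6 at an unadjusted p under 0.05 and 1 call in DESeq2. Without that library 6 glycolysis and hypoxia genes were called higher, 3 met the 2-fold criterion and the median was 0.42. The 15 mitochondrial transcripts had a median of -0.16, with ND2 at 2167 against 2663 CPM and CYTB at 5720.0 against 6754 CPM, and 0 calls in either tool, with 1 at an unadjusted p under 0.05.

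Genes of chromosomes 15 and 1 were shifted along most of their length. Chromosomes were taken from RefSeq gene names on GRCm38.p6 for 96.9% of the genes tested. On chromosome 15, 43 of 724 genes were called higher (5.94%, against 1.33% of all genes) and 2 lower, and 74.9% had a positive log2 fold change, with a median of 0.29. The median deviation of its genes was 0.104, 0.164 and 0.163 in the K412R libraries, -0.112, -0.136 and -0.156 in WT and 0.0242, -0.129 and -0.0194 in ET (log2 CPM), and -0.016, -0.045 and -0.112 in the libraries labelled K238R. All K412R libraries lay above the other 9. On chromosome 1, 40 of 1076 genes were called lower (3.72%, against 0.69%) and 12 higher, and the median was -0.19. There the K412R libraries were at -0.0969, -0.112 and -0.0926, WT at 0.0785, 0.0978 and 0.139, ET at -0.0391, 0.115 and -0.0881 and those labelled K238R at 0.0080, 0.082 and 0.106, so that the K412R libraries lay below all others. The median log2 fold changes of the other 17 autosomes and X, leaving out Y and the mitochondrial genome, lay between -0.028 and 0.059. Over the 22 chromosomes compared, the exact permutation p (2-sided) was 0.1 for both, the smallest that 3 against 3 libraries can give (0.367 after Benjamini-Hochberg adjustment). The same p was reached by chromosomes 8, 19 and Y and by the mitochondrial genome, so it does not single out chromosomes 15 and 1. The 12 genes of Y had a median of 0.66, larger in size than that of chromosome 15, with the K412R libraries at 0.274, 0.269 and 0.485 and WT at -0.0637, -0.581 and -0.435, and 2 of them met the 2-fold criterion higher. The 21 mitochondrial genes had a median of -0.16, close in size to that of chromosome 1.

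The shift ran along chromosome 15 and most of chromosome 1. Cut into 8 consecutive blocks of equal gene number, chromosome 15 had medians between 0.22 and 0.35 in all 8 blocks, and in each the library medians of K412R lay above those of WT. Chromosome 1 had medians between -0.26 and -0.19 in 7 blocks, all without overlap, and -0.030 in the fourth, from Sp100 to Nifk, where the groups overlapped. Among genes of at least 10 CPM the difference between the group means was 0.32 for chromosome 15, against 0.28 for all its genes, and -0.18 for chromosome 1, against -0.21. The 3 called genes with the smallest p on chromosome 15 were Enpp2, Fzd6, a WNT receptor (35.8, 31.4 and 36.6 CPM against 20.1, 21.7 and 19.8 CPM, log2 fold change 0.75, SE 0.11, adjusted p = 0.0104), and Col22a1, a collagen of tissue junctions (84.6, 72.5 and 105 against 44.6, 47.0 and 33.7 CPM, log2 fold change 1.06, SE 0.15, adjusted p = 0.0104). On chromosome 1 they were Idh1, cytosolic isocitrate dehydrogenase (128, 127 and 125 CPM against 174, 198 and 219.8 CPM, log2 fold change -0.64, SE 0.09, adjusted p = 0.0118), Tmem183a (54.9, 50.4 and 58.0 against 78.0, 78.6 and 89.96 CPM) and Per2, a clock gene, which rose against the trend (49.1, 47.9 and 52.4 against 32.7, 31.7 and 31.8 CPM). Outside both chromosomes 190 genes were called higher and 85 lower. DNA copy number was not measured in these libraries. Of the called list members, Sulf1, F5, Dpt, Prrx1 and Tfap2b lie on chromosome 1 and Enpp2 and Hoxc8 on chromosome 15, and Sulf1, F5 and Hoxc8 moved against the shift of their chromosome.

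**Figure D5:**
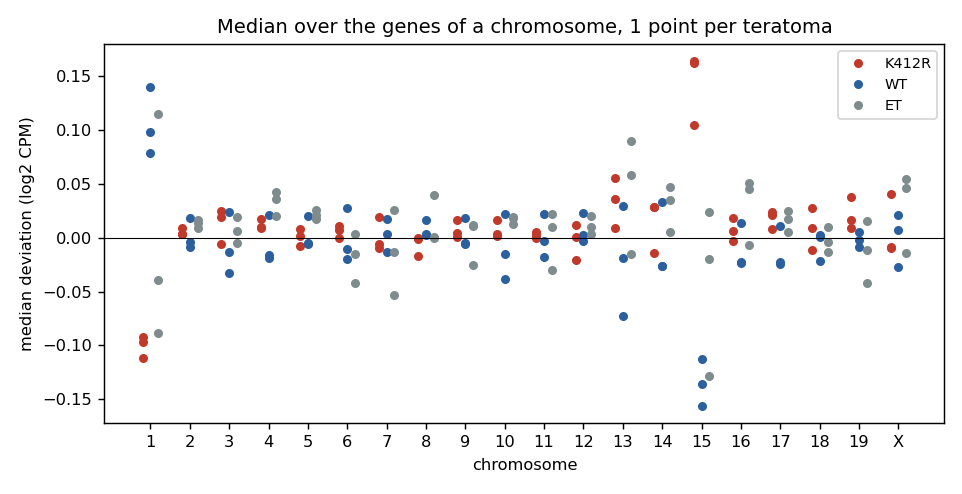
Median over the genes of a chromosome of log2 CPM minus the gene's mean of the 6 K412R and WT libraries, with 1 point per teratoma of K412R, WT and ET, for the autosomes and X. K412R and WT part on chromosome 15 (0.104 to 0.164 against -0.156 to -0.112) and on chromosome 1 (-0.112 to -0.093 against 0.079 to 0.140).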

How the data were processed

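RNA of 12 teratomas was sequenced after poly(A) selection. Per the labels, the submitters' processing notes and the study's methods, the authors used fastp for trimming, STAR for mapping to GRCm39 and Salmon for quantification, and deposited estimated counts per gene for each library, which are not normalized. The notes also name GATK, whose role, like the use of strand, is not given in the sources used here. Estimated counts were rounded to whole numbers. Genes with low counts were removed by filterByExpr, library sizes were scaled by TMM, and all 12 libraries were fitted with edgeR 4.0.16 (R 4.3.3), K412R against WT, by the quasi-likelihood test with Benjamini-Hochberg adjustment over 18405 genes. CPM values are counts scaled to the TMM library size.

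The comparison, the gene lists and the attention to chromosomes 1 and 15 were chosen with earlier results of these data known. Named genes were Dnmt3l, the 12 largest called changes in each direction (mean of at least 1 CPM, no overlap, no predicted-gene symbol), up to 6 called members per list or, with none called, the 2 with the smallest p, the 3 called genes with the smallest adjusted p on each of both chromosomes, and the genes of the study's text. Other members were chosen after their values were seen, and some list members are not reported here. Alternatives were RLE scaling, DESeq2 1.42.0, no filter, the 6 libraries alone, a replicate block, Gm26917 left out, and each library left out. Same-numbered K412R and WT libraries did not deviate together (correlations -0.100, -0.145 and 0.0872), so numbers were not taken as pairs.

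Depth was 17529003 to 17950246 counts in the 6 libraries, and intervals cover counting error only. Gm26917, an abundant RNA, took 7.47% to 13.9% of the counts.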

Additional observations from a re-analysis of the deposited data

How the results depend on the processing

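RLE scaling and leaving out Gm26917 moved no count of called genes by over 1.5 times. DESeq2 called 755 genes higher and 882 lower, the 6 libraries alone 679 and 1218, and all genes without a filter 301 and 313, with 950 lower by the 2-fold criterion. Without 1 library the adjusted calls ran from 10 to 776 higher and from 0 to 764 lower, and the 2-fold criterion gave 263 to 557 higher and 457 to 873 lower. The replicate block gave 507 higher and 648 lower, but the numbers did not pair the samples (correlations -0.100, -0.145 and 0.0872), and not every library correlated best with its own number. The Dnmt3l log2 fold change, K412R against WT, ran from -2.59 to -2.28 without 1 library and was -2.46 with the replicate block. Of the called genes named by rule, all 53 passed under RLE, DESeq2, no filter, the 6 libraries alone and the block. Without WT replicate 1, 51 passed, and Prl3b1 (adjusted p = 0.0597) and Bmp7 (0.0591) did not. Among named genes the sign changed for Sycp3 and Tnni3, neither called, each in 1 fit. The Sycp3 log2 fold change ran over -0.062 to 0.32 without 1 library (lowest without WT replicate 3), and the Tnni3 log2 fold change over -0.061 to 0.37 (lowest without K412R replicate 3). The chromosome 15 difference was 0.32 among genes of at least 10 CPM, and 0.26 to 0.31 without 1 library. With 3 teratomas a group, exact tests cannot go below 0.1. The causes of these changes were not tested.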
